A study of Mus musculus with 6 samples.

Results

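A set of 10 genes that carry lipids between and within cells was followed in Sox10-deficient and Sox10-wild-type Schwann cells of the mouse line Msc80. They were apolipoproteins and related carriers (Apod, Apoe, Apoc1, Clu), lipid efflux pumps (Abca1, Abcg1), a lipase (Lpl), lipoprotein receptors (Lrp1, Scarb1) and a fatty acid binding protein (Fabp5). All 10 were found by symbol among the 54109 Ensembl gene IDs of the count tables. They were chosen by function around Apod and selected on the fold change of Apod in this same comparison, the second lowest of 10236 genes that averaged 5 or more CPM (read counts scaled to library size). Values of the 10 genes are therefore a description, given without p-values. For the same reason the calls counted among them support nothing.

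The 6 libraries were poly(A) RNA profiles of Msc80, an established line of Schwann cells, the glia of peripheral nerve. In the 3 Sox10ko cultures Sox10 had been inactivated by CRISPR/Cas9 editing, and the labels name each source as a cell clone without saying whether the 3 were 1 clone or several. A difference between clones and an effect of Sox10 loss therefore cannot be told apart. The 3 control cultures were the same line with wild-type Sox10. Both groups grew in medium with 10% foetal calf serum, itself a source of lipoproteins, and no age or treatment time applies. The cultures of a group are called biological replicates.

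Schwann cells handle large amounts of cholesterol and fatty acids, because myelin is rich in lipid. Lipid leaves a cell through ABC pumps that load it onto apolipoproteins, travels as lipoprotein particles, and enters another cell through lipoprotein receptors, through scavenger receptors, or as fatty acids released by lipases. In injured nerve, apolipoproteins D and E are known to accumulate and to take part in the reuse of myelin lipid. Genes such as Abca1, Abcg1, Apoe and Lpl are known targets of the sterol-sensing nuclear receptor LXR.

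Libraries held 32328618 to 41529422 counted reads in Sox10ko and 37473994 to 41834431 in control. Sox10 itself stood at 82.3, 67.5 and 116 CPM in Sox10ko cultures 1, 2 and 3, against 606, 627 and 617 CPM in control cultures 1, 2 and 3. Of 9 Schwann cell markers examined, Sox10 itself among them, all were tested and 8 were called lower in Sox10ko. By the same rule, given below, 14.7% of all tested genes were called lower. The 9 markers summed to 104 to 154 CPM in Sox10ko and 4562 to 5129 CPM in control. Of these sums, Sox10 made up 67.5 to 116 CPM in Sox10ko and 606 to 627 CPM in control. Across the transcriptome 4939 of 15427 tested genes were called at an adjusted p under 0.05 (quasi-likelihood test of edgeR), 2664 higher and 2275 lower in Sox10ko, or 2869 in all without control replicate 3. Levels below are CPM after TMM scaling, given as mean ± SD over the 3 cultures of a group, and fold changes are log2 of Sox10ko over control ± SE.

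Of the 10 genes, Apoc1 and Abcg1 had too few reads to be tested. Of the 8 tested, 3 were called higher (Clu, Lpl, Lrp1) and 2 lower (Apod, Fabp5), where 32% of all tested genes were called. The same 5 were the tested members whose groups did not overlap, where 49.3% of all tested genes showed such a gap, 25.5% higher and 23.8% lower in Sox10ko. By direction, 17.3% of tested genes were called higher and 14.7% lower. Clu and Lpl reached the low-count minimum of 0.249 CPM in every library only in Sox10ko, and Apod only in control, so the direction of these 3 was set by the filter. The 5 genes above that minimum in all 6 libraries were Apoe, Abca1, Lrp1, Scarb1 and Fabp5, of which Lrp1 was called higher and Fabp5 lower.

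**Figure D1:**
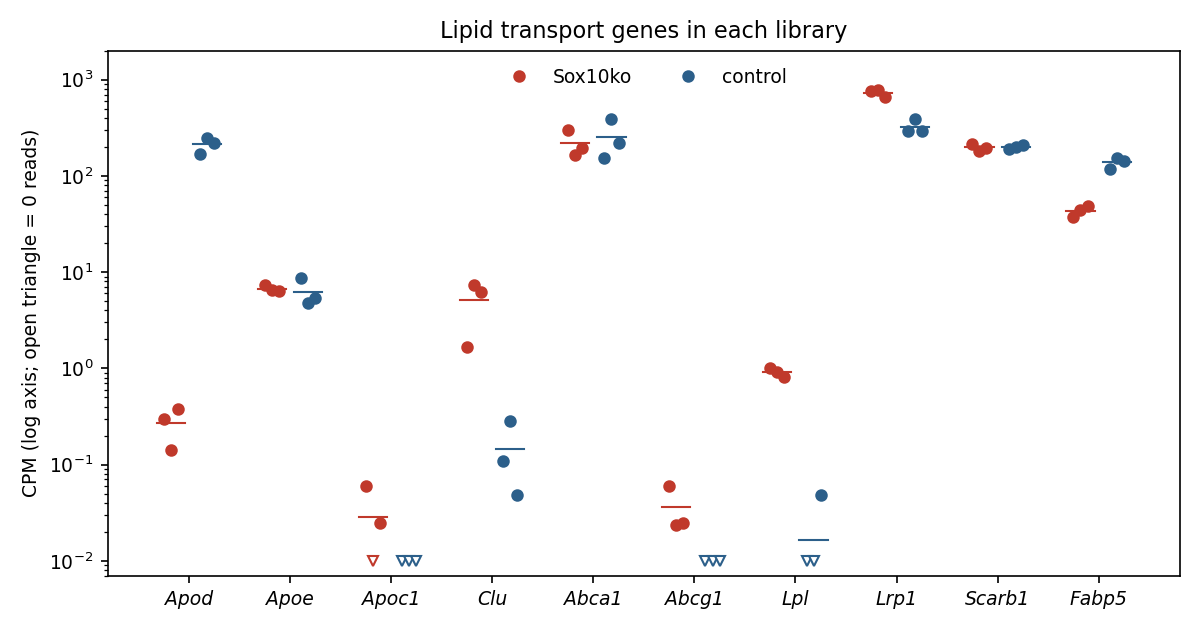
Each point is the level of a gene in 1 library, in CPM on a log axis, for 3 Sox10ko (red, left) and 3 control (blue, right) libraries, with a line at each group mean and an open triangle at the lower edge where a library had 0 reads. Apod lies below 0.4 CPM in all Sox10ko libraries and above 160 CPM in all control libraries, while Abca1, Apoe and Scarb1 overlap between the groups.

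Apod encodes apolipoprotein D, a lipocalin that binds small lipids such as arachidonic acid and is known as a secreted product of Schwann cells in regenerating nerve. It lies on chromosome 16 from 31296192 to 31314808 (minus strand, GRCm38), with 2577 exonic bases in 6 annotated transcripts and no other gene overlapping it. It was read 10, 6 and 15 times in Sox10ko cultures 1, 2 and 3, against 6225, 9643 and 9092 times in control cultures 1, 2 and 3. In CPM that was 0.300, 0.141 and 0.374 in Sox10ko, against 169, 247 and 222 in control. The Sox10ko libraries thus kept 0.141%, 0.0662% and 0.176% of the control mean, with no overlap between the groups (log2 fold change -9.62 ± 0.31). The few remaining reads were present in every Sox10ko library. In such bulk RNA, fewer cells that express a gene and less RNA per cell cannot be told apart.

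The start of Apod is shown because it had the largest change of the 10 genes, and that of Apoe because its level overlapped between the groups where that of Apod did not. RefSeq promoter windows (GRCm38.p6, 250 bases before to 50 after the start, written 5′ to 3′ on the gene's strand) were on hand for 4 of the 10 genes, Apod, Apoe, Abca1 and Lrp1. Apoe had 3 such windows, and the one printed is the farthest upstream and the only one of the 3 with a SOX match. Capitals mark matches of the SOX motifs ACAAAG and ACAATG on either strand, so that CTTTGT and CATTGT are matches on the other strand, and the 2 motifs cannot occupy the same bases in full. Apod lies at chr16:31314759-31315058, Apoe at chr7:19699139-19699438 and Abca1 at chr4:53159846-53160145, all on the minus strand.
Apod: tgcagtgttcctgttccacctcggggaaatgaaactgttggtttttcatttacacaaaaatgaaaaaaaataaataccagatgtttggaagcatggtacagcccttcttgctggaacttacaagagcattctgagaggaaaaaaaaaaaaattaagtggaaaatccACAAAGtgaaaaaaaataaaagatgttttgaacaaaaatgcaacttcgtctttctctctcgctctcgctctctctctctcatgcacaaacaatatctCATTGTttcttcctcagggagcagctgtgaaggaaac
Apoe: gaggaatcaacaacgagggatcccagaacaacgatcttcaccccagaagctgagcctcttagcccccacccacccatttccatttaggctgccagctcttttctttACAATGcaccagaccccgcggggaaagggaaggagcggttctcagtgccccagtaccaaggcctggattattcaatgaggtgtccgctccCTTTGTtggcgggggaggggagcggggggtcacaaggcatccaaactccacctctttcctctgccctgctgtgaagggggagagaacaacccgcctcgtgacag
Abca1: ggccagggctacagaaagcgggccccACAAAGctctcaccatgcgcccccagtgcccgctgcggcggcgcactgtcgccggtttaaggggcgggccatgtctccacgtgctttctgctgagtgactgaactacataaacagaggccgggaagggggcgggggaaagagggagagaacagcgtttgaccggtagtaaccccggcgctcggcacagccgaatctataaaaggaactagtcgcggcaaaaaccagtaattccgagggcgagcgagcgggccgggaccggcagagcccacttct
The Apod window held 1 ACAAAG on its own strand, 84 bases before the start, and 1 ACAATG on the other strand, 14 bases into the transcript. The printed Apoe window held the same pair, with ACAATG 144 bases before the start and ACAAAG on the other strand 54 bases before it. At least 2 such matches occurred in 5.59% of the 32851 windows of the table, and at least 1 in 28.6%. Abca1 held 1, ACAAAG 224 bases before its start, and Lrp1 none. Only 37.3% of the Apod window was G or C, against 57.7% for the printed Apoe window, 51.0% and 52.0% for the other Apoe windows, 62.7% for Abca1, 67.7% for Lrp1 and a median of 52.7% over all windows. An exact match of the direct repeat bound by LXR (AGGTCA, any 4 bases, AGGTCA, both strands) was in none of the windows of these 4 genes. It was in 0.0152% of all windows. A single exact AGGTCA was also in none of the windows of these 4 genes, and in 16.3% of all windows. Sites that depart from these letters were not searched, so these windows may still hold an LXR site. A TATA box (TATAAA) was found in the Abca1 window, 29 bases before the start, but not in those of Apod or Lrp1 nor in the Apoe window printed here, against 13.6% of all windows. The E-box CANNTG matched 2 times in Apod, 1 time in Abca1, and in neither Lrp1 nor this Apoe window, where 72.3% of all windows held one. Of the other Apoe windows, 1 held 2 TATA box matches and 1 E-box, and the remaining one had no match. These matches are letters in a window and were not measured as binding.

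The profile nearest to that of Apod over the 6 libraries was that of the connexin gene Gjc3. Likeness was the Euclidean distance between log2 CPM profiles, each centred on its own mean, among 9874 other tested genes that averaged 5 CPM or more, predicted gene names left out. Gjc3 lay at a distance of 0.38 with 0.213 ± 0.103 CPM in Sox10ko and 164 ± 52.4 CPM in control. Gas7 followed at 1.62 with 2.02 CPM in Sox10ko and 730.5 CPM in control, and then Kcna1 at 2.01. Hba-a1 was at 2.38 and is uncertain, because another globin gene is almost identical to it. Fxyd3, with 2 reads in all Sox10ko libraries, was at 2.52. None of these 5 was a lipid transport gene of the lists used here. Their log2 fold changes ran from -9.60 (Gjc3) to -8.51 (Gas7), against -9.62 for Apod. With shifts of this size the distance mostly reflects the difference between the groups, on which Apod was selected. The ranking is therefore a description and supports nothing.

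Apoe, the main apolipoprotein of glial lipid transport, was expressed at a low level in both groups. It was measured at 7.28, 6.48 and 6.30 CPM in Sox10ko cultures 1, 2 and 3, against 8.59, 4.79 and 5.42 CPM in control cultures 1, 2 and 3. The Sox10ko values lay inside the control range, and Apoe was not called (log2 fold change 0.09 ± 0.25). Its spread was 7.78% of the mean in Sox10ko and 32.5% in control, where replicate 1 alone lay above every Sox10ko library. Leaving out single libraries moved the log2 fold change between -0.08 and 0.37, and it was not called in any of these fits.

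Apoc1, a small apolipoprotein that exchanges between lipoprotein particles and whose gene lies 3448 bases from Apoe on chromosome 7, had 2, 0 and 1 reads in Sox10ko and 0 in each control library. The 0 reads allow a level of up to 0.0257 CPM over the control group, counting error only. At this depth no difference was detectable for Apoc1.

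Clu encodes clusterin (apolipoprotein J), a secreted chaperone that also binds lipids and inhibits complement. It had 56, 316 and 249 reads in Sox10ko cultures 1, 2 and 3, against 4, 11 and 2 reads in control cultures 1, 2 and 3. In CPM that was 1.68, 7.42 and 6.20 in Sox10ko, against 0.108, 0.282 and 0.0488 in control. All Sox10ko values lay above all control values, replicate 1 being the lowest of its group (log2 fold change 5.10 ± 0.77, 34.3-fold). Without control replicate 2, which held 11 of the 17 control reads, the fitted rise was 62.5-fold.

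The efflux pump Abca1, which moves cholesterol and phospholipid out of the cell onto lipid-poor apolipoproteins, was abundant in both groups. It stood at 303, 166 and 194 CPM in Sox10ko cultures 1, 2 and 3, against 155, 390 and 220 CPM in control cultures 1, 2 and 3. The groups overlapped widely and Abca1 was not called (log2 fold change -0.20 ± 0.36, and between -0.50 and 0.22 with 1 library left out). Its spread within a group was wide, 32.6% of the mean in Sox10ko and 47.6% in control, against medians of 12.4% and 8.30% over 10236 genes averaging 5 CPM or more. These values placed it at the 91.5th percentile of such spreads in Sox10ko and at the 98.5th in control.

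The libraries of Abca1 stood in the order 1, 3, 2 from high to low in Sox10ko and 2, 3, 1 in control. After these values had been seen, genes with the same order in both groups were counted. They were 12 of 69 genes of the wider lists described below, or 17.4%, against 5.89% of the 10235 other genes averaging 5 CPM or more, and 0 of the 5 other members at that level. Among the 12 were Lipa, the lysosomal acid lipase, and the stearoyl-CoA desaturase genes Scd1 and Scd2, which had the widest spread of the 12 in Sox10ko. Others varied far less, such as Abcd3, with a spread of 9.52% of the mean in Sox10ko and 9.58% in control. Lipa read 644, 231 and 442 CPM in Sox10ko cultures 1, 2 and 3, against 417, 759 and 572 CPM in control cultures 1, 2 and 3. Scd1 read 872, 303 and 574 CPM in Sox10ko, against 547, 726 and 624 CPM in control. The order was taken from these same values, and genes of one library share its culture, so these counts are only a description. The reason for the shared order was not tested.

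The sister pump Abcg1, which passes cholesterol to mature HDL particles, was close to undetected, with 2, 1 and 1 reads in Sox10ko and 0 reads in each control library. Both members of the pair are LXR targets, and in these cells they were read at very different depth, 25009 reads against 4 over the 3 Sox10ko libraries and 29925 against 0 over the 3 control libraries.

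Lpl encodes lipoprotein lipase, which frees fatty acids from triglyceride-rich particles. It had 34, 39 and 33 reads in Sox10ko cultures 1, 2 and 3, against 0, 0 and 2 reads in control cultures 1, 2 and 3. The Sox10ko libraries were close to each other at 1.02, 0.915 and 0.822 CPM and all above the controls. The ratio of pooled CPM was 53.3, with an exact (Clopper-Pearson) 95% counting interval of 14.4 to 446. It was 36.5 without control replicate 1 and 35.5 without control replicate 2. Without control replicate 3, which held both control reads, Lpl was at least 23.1-fold higher, taking 3 counts as the limit of the remaining controls together. Even so, the gene stayed near 1 CPM in Sox10ko.

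The receptor Lrp1, a large endocytic receptor for apolipoprotein E and many other ligands that Schwann cells are known to use in survival signalling, was the most abundant of the 10 genes in Sox10ko. It stood at 765, 781 and 660 CPM in Sox10ko cultures 1, 2 and 3, against 290, 393 and 294 CPM in control cultures 1, 2 and 3. The groups did not overlap, the lowest Sox10ko library lying well above the highest control library. The mean was 735 ± 65.7 CPM in Sox10ko and 326 ± 58.5 CPM in control (log2 fold change 1.17 ± 0.15, 2.26-fold). With 1 library left out, the log2 fold change stayed between 1.07 and 1.32.

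Scarb1, the scavenger receptor that takes up cholesteryl ester from HDL, varied little. It stood at 217, 182 and 196 CPM in Sox10ko cultures 1, 2 and 3, against 190, 202 and 212 CPM in control cultures 1, 2 and 3. The control range lay inside that of Sox10ko (log2 fold change -0.02 ± 0.10), with a spread of 8.81% of the mean in Sox10ko and 5.40% in control.

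Fabp5, the epidermal fatty acid binding protein, which carries fatty acids inside the cell and is also found in Schwann cells, was lower in all Sox10ko libraries. It stood at 37.0, 44.6 and 48.6 CPM in Sox10ko cultures 1, 2 and 3, against 118, 154 and 145 CPM in control cultures 1, 2 and 3. The group means were 43.4 ± 5.89 CPM in Sox10ko and 139 ± 18.2 CPM in control (log2 fold change -1.68 ± 0.15, 3.20-fold lower), and the groups did not overlap. The annotation holds 3 other genes with stretches 96.0% to 98.3% identical to a Fabp5 transcript over at least 100 bases, so reads could be split between them. Together they held 9 to 15 reads in Sox10ko libraries and 34 to 40 in control libraries, at most 0.89% of the Fabp5 reads of a library.

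Per kilobase of exonic sequence, the order of the 10 genes was not the same in the groups. In Sox10ko the highest was Lrp1 at 41.5 ± 3.71 CPM per kilobase (RPKM), followed by Scarb1 at 23.4 ± 2.06 RPKM and Abca1 at 21.4 ± 6.97 RPKM, whose ranges overlapped, and by Fabp5 at 12.2 ± 1.65 RPKM. Apoe at 3.13 ± 0.243 RPKM and Clu at 1.48 ± 0.880 RPKM came next, and then Apod at 0.105 ± 0.0462 RPKM, which overlapped Lpl at 0.0877 ± 0.00937 RPKM. In control the highest was Apod at 82.5 ± 15.5 RPKM. Fabp5 at 38.9 ± 5.10 RPKM and Abca1 at 24.6 ± 11.7 RPKM overlapped, as did Abca1 and Scarb1 at 23.7 ± 1.28 RPKM. Lrp1 followed at 18.4 ± 3.30 RPKM and Apoe at 2.93 ± 0.954 RPKM, and the rest lay below 0.1 RPKM. Apod thus ranked 1 of 10 in control and 7 of 10 in Sox10ko. Among all tested genes with a known length, its mean per kilobase stood at percentile 4.84 in Sox10ko and 96.6 in control.

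**Figure D2:**
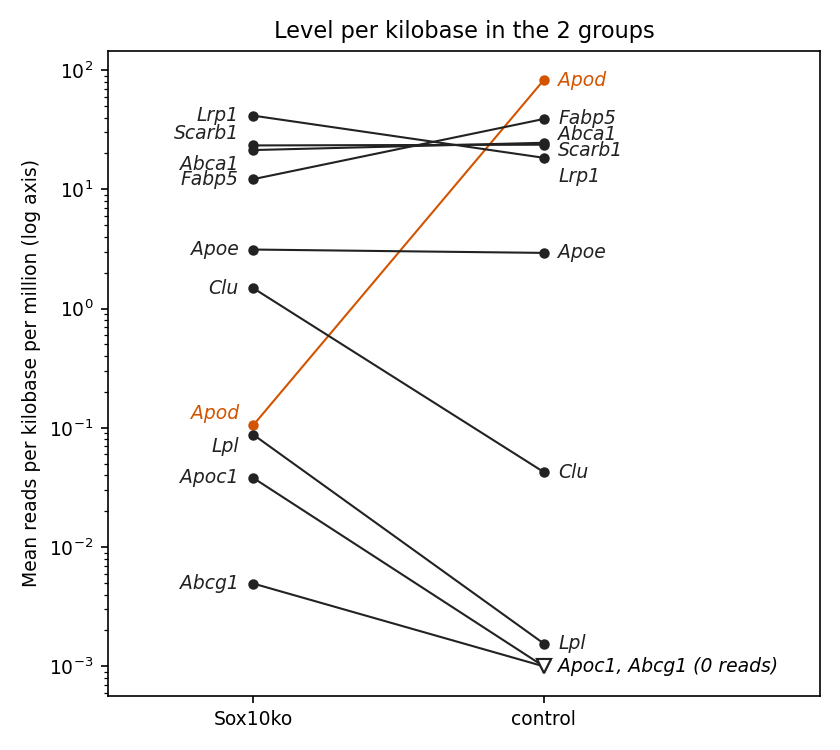
Mean CPM per kilobase of exon (RPKM, log axis) of each of the 10 genes in Sox10ko (left) and control (right), joined by a line, with the control means of Apoc1 and Abcg1, which are 0, drawn as an open triangle at the lower edge. Apod, in orange, has the highest mean in control and ranks 7 of 10 in Sox10ko, while Abca1, Scarb1 and Apoe run nearly level.

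Further genes of lipid transport were taken from 7 lists drawn up by known role, 139 genes in all, of which 98 had enough reads to be tested. Of these, 29 were called higher and 16 lower in Sox10ko, 45.9% against 32% of all tested genes (edgeR quasi-likelihood test), and 27 were called in all without control replicate 3. The higher calls were 29.6% of the tested list genes, where 17.3% of all tested genes were called higher. The lower calls were 16.3%, where 14.7% of all tested genes were called lower. The median log2 fold change was 0.22, against 0.02 over all tested genes. Among the 84 list genes above the low-count minimum in all 6 libraries, 21 were called higher and 15 lower. Of all 13116 tested genes above that minimum, 14.9% were called higher and 15% lower, 30% in all. The lists were drawn up with earlier results of these data known and were not tested as sets, so these shares are a description.

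**Figure D3:**
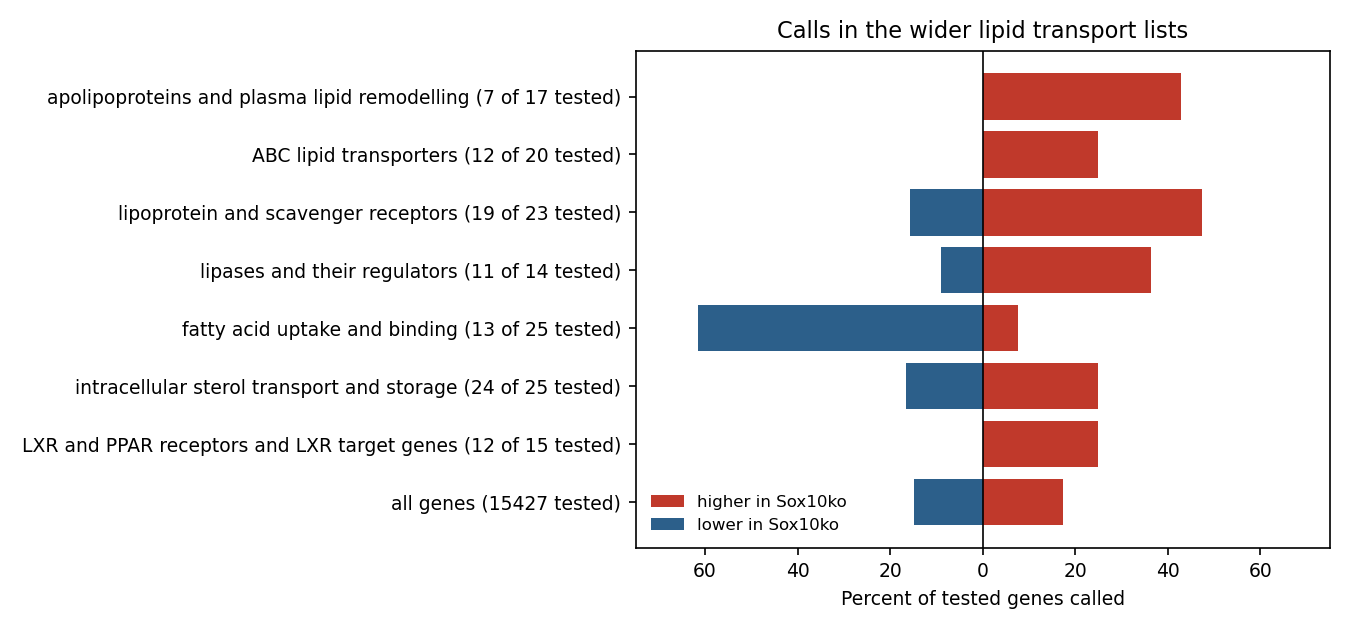
For each list of further lipid transport genes and for all tested genes, bars show the percent of tested genes called higher (red, to the right) and lower (blue, to the left) in Sox10ko at an edgeR adjusted p under 0.05. Fatty acid uptake and binding is the list with more lower than higher calls, 8 and 1 of 13 tested, and the bottom bar gives the transcriptome, 17.3% higher and 14.7% lower.

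Among other apolipoproteins and enzymes that remodel lipoproteins, 3 of 7 tested genes were higher and 0 lower (median log2 fold change 0.74). That was 42.9% called, against 32% of all tested genes. The other 10 of the 17 listed were untested, with at most 44 reads each over the 6 libraries. The untested genes included Apoa1, Apob and Apoc2, typical of liver and intestine, with Apoc2 at 0 reads. Pltp, the phospholipid transfer protein, rose to 34.6 ± 5.34 CPM in Sox10ko, against 3.04 ± 0.124 CPM in control (log2 fold change 3.51 ± 0.16, edgeR adjusted p = 4.14e-05). It shares 316 bases of near-identical transcript with its neighbour Ctsa, which was also read more in Sox10ko, at 9689 to 12099 reads per library against 3598 to 5835 in control. Apobr, a receptor for apolipoprotein B48, rose to 12.8 ± 3.94 CPM in Sox10ko, against 1.10 ± 0.654 CPM in control (edgeR adjusted p = 0.00170), and shares 443 bases with Cln3, which had 48 to 54 reads per library in Sox10ko and 7 to 24 in control. Mttp, which loads lipid onto apolipoprotein B, rose to 9.11 ± 1.02 CPM in Sox10ko, against 5.47 ± 0.822 CPM in control (edgeR adjusted p = 0.0223). The Mttp call was lost without Sox10ko replicate 1 (edgeR adjusted p = 0.0543) and without control replicate 1, 2 or 3 (edgeR adjusted p = 0.0587, 0.0508 and 0.0967), the last being the highest of all alternatives, of which the lowest was 0.00172.

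Of 12 tested ABC lipid transporters, 3 were higher and 0 lower, 25% called against 32% of all tested genes (median log2 fold change 0.37). Abca7, a phospholipid exporter related to Abca1, rose to 104 ± 18.4 CPM in Sox10ko, against 54.9 ± 2.45 CPM in control (log2 fold change 0.93 ± 0.14, edgeR adjusted p = 0.00299). Abca8a had 253 reads in Sox10ko and 0 in control and was at least 84.9-fold higher, taking 3 counts as the limit of the controls together. That bound was 56.5 without control replicate 2 and 55.1 without control replicate 3, because the same limit then stands against a smaller control depth. Abca8a passed the low-count filter through Sox10ko alone (edgeR adjusted p = 0.00120). Its neighbour Abca8b stood at 4.93 ± 1.60 CPM in Sox10ko and 1.32 ± 0.628 CPM in control (edgeR adjusted p = 0.0147, and 0.0617 without control replicate 3, the highest of all alternatives). Transcripts of the pair share 218 bases at 96.3% identity, so part of their reads may be misplaced.

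Among lipoprotein and scavenger receptors, 9 of 19 tested genes were higher and 3 lower (median log2 fold change 0.56). That was 63.2% called, against 32% of all tested genes. Over the 16 above the low-count minimum in all libraries, 7 were higher and 3 lower. Lrp11 rose to 40.8 ± 10.3 CPM in Sox10ko, against 8.33 ± 2.06 CPM in control (log2 fold change 2.29 ± 0.25, edgeR adjusted p = 0.000767). Lrp10 rose 1.52-fold (edgeR adjusted p = 0.00410). Lrp4, known at the neuromuscular junction as the agrin receptor, rose 2.03-fold (edgeR adjusted p = 0.00747). Stab1, a scavenger receptor of endothelium and macrophages, fell to 0.485 ± 0.140 CPM in Sox10ko, against 11.0 ± 4.58 CPM in control (log2 fold change -4.50 ± 0.40, edgeR adjusted p = 0.000352). Its neighbour Nt5dc2, with which it shares 112 bases, had 331 to 1110 reads per library in Sox10ko and 2163 to 2565 in control. Lrp5, a Wnt co-receptor, fell to 66.2 ± 19.3 CPM in Sox10ko, against 116 ± 9.16 CPM in control (edgeR adjusted p = 0.0269). Lrp8, a receptor for apolipoprotein E and reelin, fell to 73.1 ± 22.4 CPM in Sox10ko, against 123 ± 15.3 CPM in control (edgeR adjusted p = 0.0350). Lrp5 was no longer called without control replicate 1, 2 or 3 (edgeR adjusted p = 0.0778, 0.0599 and 0.0654), and Lrp8 not without any control library or Sox10ko replicate 2 or 3 (edgeR adjusted p between 0.0593 and 0.102).

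Among lipases and their regulators, 4 of 11 tested genes were higher and 1 lower (median log2 fold change 0.48). That was 45.5% called, against 32% of all tested genes. Abhd5, the coactivator of the triglyceride lipase encoded by Pnpla2, fell to 59.8 ± 7.09 CPM in Sox10ko, against 101 ± 9.84 CPM in control (log2 fold change -0.76 ± 0.12, edgeR adjusted p = 0.00394). Pnpla2 itself rose to 78.1 ± 23.3 CPM in Sox10ko, against 44.5 ± 8.43 CPM in control (edgeR adjusted p = 0.0317). That call was lost without Sox10ko replicate 1 or control replicate 1 or 3 (edgeR adjusted p = 0.0541, 0.113 and 0.118). Lipg, the endothelial lipase, was low at 1.89 ± 0.795 CPM in Sox10ko and 0.429 ± 0.209 CPM in control (edgeR adjusted p = 0.0145, and 0.0534 without control replicate 2). Angptl4, a secreted inhibitor of lipoprotein lipase, had 81 reads in Sox10ko and 12 in control (6.57-fold, edgeR adjusted p = 0.0308). Its fold was 17.1 without control replicate 1 and 4.35 without control replicate 2. The Angptl4 call was lost without any 1 Sox10ko library or without control replicate 3 (edgeR adjusted p between 0.0539 and 0.135). Lipg and Angptl4 passed the low-count filter only through Sox10ko.

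Genes of fatty acid uptake and binding moved mostly the way Fabp5 did, 8 of 13 tested lower and 1 higher (median log2 fold change -0.66). That was 61.5% lower, where 14.7% of all tested genes were called lower. Over the 10 above the low-count minimum in all libraries, the median was -0.78, with 7 lower and 0 higher. Acsl5 and Acsl4, acyl-CoA synthetases that trap fatty acids by activating them, were the most abundant of those named by the rule. Acsl5 fell to 288 ± 33.0 CPM in Sox10ko, against 536 ± 73.9 CPM in control (log2 fold change -0.89 ± 0.14, edgeR adjusted p = 0.00339). Acsl4 fell to 134 ± 17.2 CPM in Sox10ko, against 302 ± 71.3 CPM in control (log2 fold change -1.17 ± 0.18, edgeR adjusted p = 0.00340). The fatty acid transporter gene Slc27a6 fell to 0.613 ± 0.0779 CPM in Sox10ko, against 3.03 ± 0.627 CPM in control (edgeR adjusted p = 0.00104). The exception was Cd36, a fatty acid translocase and scavenger receptor, with 30, 44 and 47 reads in Sox10ko and 2, 3 and 2 reads in control (edgeR adjusted p = 0.000368), which passed the filter through Sox10ko alone.

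The remaining 5 lower genes of that list are named after their values were seen. Dbi, the acyl-CoA binding protein, fell to 307 ± 58.0 CPM in Sox10ko, against 711 ± 146 CPM in control (edgeR adjusted p = 0.00348). Pmp2, the fatty acid binding protein of peripheral myelin, was barely expressed, at 0.0406 ± 0.0378 CPM in Sox10ko and 0.755 ± 0.259 CPM in control (edgeR adjusted p = 0.00348). It passed the filter through control alone, and its fall of 16.6-fold was 26.1-fold without Sox10ko replicate 3. Slc27a1, Slc27a4 and Acsl1 were lower by 2.31-, 1.58- and 1.51-fold (edgeR adjusted p = 0.0453, 0.0191 and 0.0322). Slc27a1 was no longer called without any 1 Sox10ko library or without control replicate 2 or 3 (edgeR adjusted p between 0.0658 and 0.135), nor with limma-voom (adjusted p = 0.0867) or when only genes averaging 5 CPM or more were kept (0.0545). Slc27a4 was no longer called without control replicate 2 or 3 (edgeR adjusted p = 0.0616 and 0.0727). Acsl1 was no longer called without Sox10ko replicate 1 or 2 or control replicate 2 or 3 (edgeR adjusted p between 0.0682 and 0.0928). The other Fabp genes gave little signal. Fabp7, known from immature glia, was the only other one tested, at 1.25 CPM in Sox10ko and 0.688 CPM in control, and did not pass.

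Among genes that move and store sterols inside the cell, 6 of 24 tested were higher and 4 lower (median log2 fold change 0.11). That was 25% higher and 16.7% lower, where 17.3% and 14.7% of all tested genes were so called. Npc1, the lysosomal cholesterol exporter, fell to 101 ± 20.7 CPM in Sox10ko, against 202 ± 48.8 CPM in control (edgeR adjusted p = 0.0109). Nceh1, a cholesteryl ester hydrolase, fell to 116 ± 23.2 CPM in Sox10ko, against 269 ± 77.4 CPM in control (edgeR adjusted p = 0.00948). Stard3, which tethers endosomes to the endoplasmic reticulum, fell 1.60-fold (edgeR adjusted p = 0.00199). The oxysterol-binding protein genes Osbpl5 and Osbpl9 rose 2.21-fold and 1.48-fold (edgeR adjusted p = 0.00119 and 0.00480). Soat2, a cholesterol acyltransferase, had 153 reads in Sox10ko and 10 in control, a 15.3-fold rise (edgeR adjusted p = 0.00586) that was 46.4-fold without control replicate 2 and passed the filter through Sox10ko alone.

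Of 12 tested nuclear receptors and LXR target genes, 3 were higher and 0 lower, 25% called against 32% of all tested genes (median log2 fold change 0.23). Pparg, the adipogenic receptor, had 22, 146 and 118 reads in Sox10ko and 0, 1 and 0 in control, a ratio of 288 with an exact 95% counting interval of 51.3 to 11410 (edgeR adjusted p = 0.00188), and passed the filter through Sox10ko alone. That ratio was 187 without control replicate 3, and without control replicate 2, which held the read, Pparg was at least 63.9-fold higher. Nr1h3, which encodes LXR alpha, stood at 1.58 ± 0.918 CPM in Sox10ko and 0.486 ± 0.0696 CPM in control (3.24-fold, edgeR adjusted p = 0.0265). Without Sox10ko replicate 3 the fold was 2.16 and the call was lost (edgeR adjusted p = 0.0507), as it was without any 1 control library (edgeR adjusted p between 0.0707 and 0.0936). Mylip, an LXR target that encodes a ubiquitin ligase, was just past the threshold at 15.5 ± 3.40 CPM in Sox10ko and 10.3 ± 0.700 CPM in control (edgeR adjusted p = 0.04997). It was lost without Sox10ko replicate 1 or 3 (edgeR adjusted p = 0.113 and 0.125) and without control replicate 1, 2 or 3 (edgeR adjusted p = 0.107, 0.144 and 0.150). It was lost too with DESeq2 size factors (adjusted p = 0.0523), with no low-count filter (0.0746) and with limma-voom (0.0653).

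**Figure D4:**
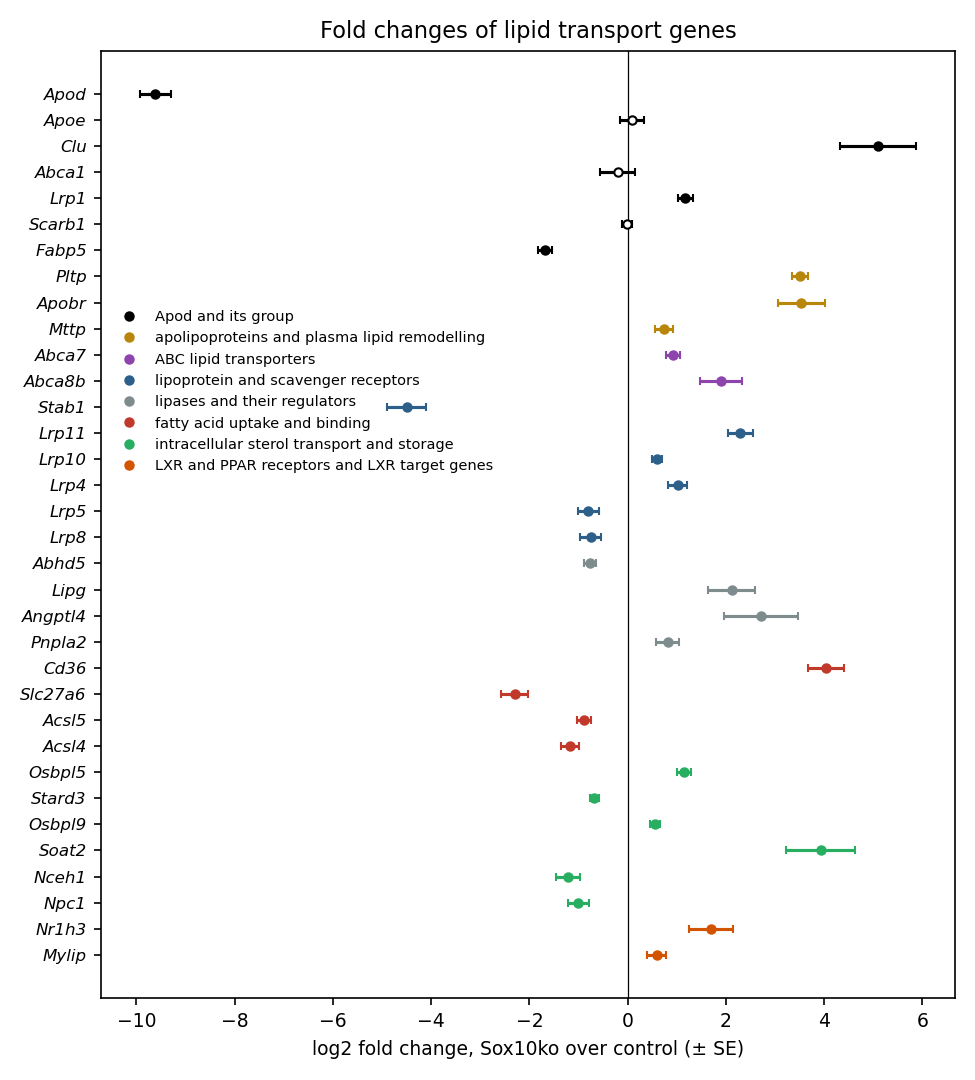
Log2 fold change of Sox10ko over control (points, ± SE as bars) for Apod and the tested members of its group (black) and for the further lipid transport genes named by the rule (colours by list), leaving out genes with 3 or fewer control reads. Filled points were called at an edgeR adjusted p under 0.05, and open points (Apoe, Abca1, Scarb1) were not. Among the genes drawn, Apod at -9.62 lies apart from the rest, which run from -4.50 (Stab1) to 5.10 (Clu). Lpl, Abca8a and Pparg were left out, with 2, 0 and 1 control reads. Their fitted values, uncertain at such counts, were 5.51, 9.40 and 7.64.

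Several of the named transcripts overlap another gene. Identical stretches of at least 100 bases were shared by Mttp and Trmt10a, Npc1 and Rmc1, Abhd5 and A730085K08Rik, Acsl5 and Zdhhc6, Lrp10 and Gm10366, and Osbpl9 and Nrd1, the longest being the 950 bases of Abhd5. A730085K08Rik had 3 to 4 reads per library in Sox10ko and 3 to 6 in control, and Gm10366 had 6 to 13 and 3 to 8. The other partners were read far more. Trmt10a had 948 to 1387 reads per library in Sox10ko and 974 to 1210 in control, and Rmc1 had 1539 to 2455 and 1578 to 2022. Zdhhc6 had 4755 to 7177 and 6340 to 7062, and Nrd1 had 7308 to 9808 and 8275 to 9698. How far this alters the counts of the named genes was not measured, the strand setting of the counting being not given in the sources used here.

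Markers of other cell types were read in the same libraries, since Cd36 and Pparg are also genes of macrophages and fat cells. Of 12 macrophage markers, 10 were untested with at most 33 reads each over the 6 libraries, and Tyrobp and Itgam had 0 reads. Their sum was 9.98 to 13.6 CPM in Sox10ko and 5.51 to 7.35 CPM in control, with Cd68 higher in Sox10ko (edgeR adjusted p = 0.00650). Of 8 adipocyte markers, 7 were untested with at most 10 reads each, including Adipoq and Plin1. The exception was Plin4, a lipid droplet coat protein, at 182 CPM in Sox10ko and 1.32 CPM in control (137-fold, or 235-fold without control replicate 2). The adipocyte sum was thus 157 to 215 CPM in Sox10ko and 0.569 to 2.59 CPM in control. None of 6 hepatocyte markers was tested, and their sum was at most 0.141 CPM in a Sox10ko library and 0.171 CPM in a control library. Of 8 fibroblast markers, 5 were tested and 3 were called higher, where 17.3% of all tested genes were called higher. The 8 summed to 1111 to 2316 CPM in Sox10ko and 462 to 587 CPM in control. Dcn and Lum were among the 3 untested. The 5 endothelial markers summed to 0.389 to 0.728 CPM in Sox10ko and 2.13 to 2.39 CPM in control. The part of such markers in the lipid transport results was not tested.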

How the data were processed

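The 6 libraries of the mouse line Msc80 (3 Sox10ko, 3 control) were analysed from the deposited counts, whole numbers of reads per Ensembl gene ID that the authors left unnormalised, 1 table per library. The submitters' processing notes name the aligner STAR (2.6.0c), the counter HTSeq, DESeq2 and the build mm10 (GRCm38). Annotation release and strand setting were not given in the sources used here. Per the labels' protocols, libraries were stranded and made from mRNA. Totals of 32328618 to 41834431 reads make 1 read worth 0.0239 to 0.0309 CPM. Intervals and floors cover counting error only, since PCR copies were not marked by molecular identifiers. Each p-value sets the difference between the groups against the spread between cultures of a group. The Sox10ko cultures may be 1 clone, so variation between clones may not be covered.

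Symbols matched 54042 of 54109 IDs. Coordinates and exonic lengths came from GENCODE M21 (GRCm38), and promoter windows from RefSeq (GRCm38.p6). Genes passing filterByExpr were scaled by TMM and tested with edgeR 4.0.16 (R 4.3.3) for genotype over all 6 libraries without covariates, two-sided, with Benjamini-Hochberg adjustment over 15427 genes. The SE is the log2 fold change divided by the root of the F statistic. On counts simulated for Sox10ko against control, with 15427 genes and 50 changed per fold, the edgeR step recovered 24% of genes changed 1.5-fold, 74% at 2-fold and 100% at 4-fold and 8-fold, with 12 false calls among 15227. The simulation changed 200 genes, far fewer than the 4939 called in the data, so its rates need not hold for this comparison. Replicates differed beyond sampling noise (chi-square per degree of freedom 71.2 to 82.1 in Sox10ko, 25.1 to 54.5 in control). Near-identical copies were sought with blastn at 95% identity over 100 bases.

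The 10 genes and all lists were chosen with earlier results of these data known. In each list the text names at most 4 called genes, ranked by adjusted p, plus at most 2 from the direction with fewer calls, and for Apod the 5 nearest profiles. Alternatives were DESeq2 size factors, library size alone, no low-count filter, only genes averaging 5 CPM or more, limma-voom (limma 3.58.1), DESeq2 1.42.0, a replicate block and leaving out each library.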

Additional observations from a re-analysis of the deposited data

How the results depend on the processing

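Each of the 8 tested members kept its call or lack of one under all alternatives that tested it (13, or 12 for Clu and Lpl, which a mean of at least 5 CPM removes). That filter is why the number of members called was 3 under it and 5 otherwise. With 1 library left out, the calls over all genes ran from 2869 to 4681 (higher 1523 to 2531, lower 1346 to 2188), those in the wider lists from 27 to 45 (higher 17 to 32, lower 10 to 16), and those among list genes above the low-count minimum in all libraries from 20 to 36, each lowest without control replicate 3. Higher calls in the wider lists were 19 with a mean of at least 5 CPM, which tests fewer genes. Of the 29 wider genes named by the rule, 20 kept their call in every alternative that tested them and 9 lost it in at least 1, and none turned round. Requiring a mean of 5 CPM left Abca8a, Cd36, Slc27a6, Soat2 and Pparg of those 20, and Abca8b, Lipg, Angptl4 and Nr1h3 of those 9, untested, so they had 12 alternatives. Over all alternatives the adjusted p of these 9 ran from 0.00223 to 0.0778 for Lrp5, 0.00420 to 0.102 for Lrp8, 0.0142 to 0.135 for Angptl4, 0.00446 to 0.118 for Pnpla2, 0.00827 to 0.0936 for Nr1h3, 0.0116 to 0.150 for Mylip, 0.00172 to 0.0967 for Mttp, 0.000139 to 0.0617 for Abca8b and 0.000726 to 0.0550 for Lipg. For the genes named after their values were seen, it ran from 0.00240 to 0.135 for Slc27a1, 0.00137 to 0.0727 for Slc27a4 and 0.00642 to 0.0928 for Acsl1. Deviations of same-numbered libraries correlated at -0.21, -0.10 and 0.07 over 10236 genes, and not every library correlated best with its own number. With 3 libraries per group, these values cannot tell whether same-numbered cultures were handled together. With the replicate block, 3537 genes were called in all and 32 in the wider lists, and the 5 members called were again 5, with log2 fold changes of -9.62 for Apod and 1.18 for Lrp1. The block took the call from 8 of the 29 named genes, with adjusted p = 0.0510 for Abca8b, 0.0520 for Lrp5, 0.0677 for Lrp8, 0.0550 for Lipg, 0.0535 for Angptl4, 0.0768 for Pnpla2, 0.0521 for Nr1h3 and 0.0738 for Mylip, and from Slc27a4 (0.0525). Depth limits Apoc1 and Abcg1, which had 3 and 4 reads in all.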
